A study of Mus musculus with 12 samples.

Results

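The genes described here are 10 that heart muscle is known to use or switch on under stretch, load or injury. The rule names them one by one and uses no measured value, but the genes were chosen with earlier results of these data known. Shares of members set beside shares of all genes are therefore a description. They are the titin-linked sensors Ankrd1, Fhl1 and Fhl2, the Xin actin-binding repeat genes Xirp1 and Xirp2, the sarcomeric actins Acta1 and Actc1, the receptor gene Tnfrsf12a with its ligand gene Tnfsf12, and the calcineurin regulator Rcan1. All 10 of 10 were found among the 38293 genes of the deposited tables, and all 10 passed the filter on low counts that left 14770 genes tested. RNA was sequenced from left ventricles of C57BL/6J mice without disease. In open-chest surgery 2 injections of 10 µl went into the ventricle wall, and the tissue was taken 3 days later. In 4 samples the injected material was Upy-PEG with antimiR-195, in 4 it was Upy-PEG alone and in 4 it was PBS. Upy-PEG is a hydrogel whose poly(ethylene glycol) chains are cross-linked through ureidopyrimidinone units, PBS is buffered saline, and antimiR-195 is an inhibitory oligonucleotide against the microRNA miR-195. All 3 groups therefore carried the surgery and the needle injury, and none of them received the hydrogel with a control oligonucleotide. The labels name no sex, age, litter or batch and do not say that the samples of a group came from different animals, so each p below measures the spread between these samples.

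A working heart muscle cell senses load partly at titin, the giant spring protein of the sarcomere, where the ankyrin repeat protein of Ankrd1 and the LIM-domain proteins of Fhl1 and Fhl2 dock, and partly at the intercalated disc, where the Xin proteins of Xirp1 and Xirp2 bind actin. Loaded or injured ventricles are known for a return of fetal genes, among them the skeletal muscle actin Acta1 beside the adult cardiac actin Actc1, for induction of Fn14 (Tnfrsf12a), the receptor of the cytokine TWEAK (Tnfsf12), and for expression of Rcan1, an inhibitor of the phosphatase calcineurin that calcineurin itself induces through NFAT. Several of these genes are textbook targets of serum response factor, which binds CArG boxes, and of TEAD factors, which bind MCAT elements.

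The libraries held 22353241 to 30278621 counts on genes, and a member's count in a single library ran from 236 (Tnfsf12) to 419946 (Actc1). The tissue label was checked on Myh6, the adult cardiac myosin heavy chain, which measured 29742, 19881, 19870.5 and 27468 CPM (counts scaled to library size) in the antimiR-195 libraries, 21323, 21436, 26395 and 26393 in the Upy-PEG libraries and 32438, 36112, 30865 and 28477 in the PBS libraries. AntimiR-195 replicates 2 and 3 stood apart on the first principal component (35.1% of the variance), at −60.2 and −40.7 against −8.5 to 33.4 for the other libraries. Values of long genes were also lower in those libraries, with slopes of −0.23 and −0.14 log2 CPM per doubling of length against −0.042 to 0.12 elsewhere. For antimiR-195 against both other groups, the members' values are therefore given below both with and without these libraries, and some of them differ.

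The promoters of these genes are shown because the actin and LIM genes are known for the CArG boxes and the stretch-responsive genes for the MCAT elements that heart muscle reads under load. RefSeq promoters on GRCm38.p6 (250 bases before to 50 after a start) were matched for 8 of 10 members, 11 promoters in all. Both strands were searched for the letters CATTCC of the MCAT element, for TGANTCA of the AP-1 factors and for GGAAAA of the NFAT core. They were also searched for the letters TATAAA, and for the CArG box and the MEF2 box by their usual definitions; a TATA match can lie inside a MEF2 box, as it does in the first Fhl2 promoter. A CArG box was found in Acta1, Actc1, the first Fhl1 promoter and both Fhl2 promoters, against 1.63% of 32851 promoters of this length. MCAT was found in Ankrd1, at both −210 and −123 from the start, and in Acta1 (14.7% of promoters). The second Rcan1 promoter held the NFAT core at −228 and −193 (23.4% of promoters) and AP-1 at −110 (7.81%). Xirp2 held AP-1 and a MEF2 box (3.19% of promoters), and TATA was found in Acta1, Actc1, Fhl1 and Fhl2 (13.6%). No motif of the 6 was found in the windows of Tnfrsf12a, the first Rcan1 promoter or the second Fhl1 promoter. The stretches below are each given 5′ to 3′ on the gene's own strand, with capitals for the CArG box, MCAT (GGAATG on this strand in Ankrd1) and, in Acta1, TATA.
Acta1, chr8:123894771-123894860, minus strand: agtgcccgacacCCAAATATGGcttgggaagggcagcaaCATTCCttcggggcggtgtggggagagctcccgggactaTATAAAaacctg
Actc1, chr2:114052871-114052960, minus strand: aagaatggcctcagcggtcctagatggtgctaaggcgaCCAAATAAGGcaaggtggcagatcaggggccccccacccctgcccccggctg
Fhl1 first promoter, chrX:56779553-56779642, plus strand: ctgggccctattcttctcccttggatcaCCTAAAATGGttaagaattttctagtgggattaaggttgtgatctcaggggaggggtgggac
Fhl2 first promoter, chr1:43196797-43196886, minus strand: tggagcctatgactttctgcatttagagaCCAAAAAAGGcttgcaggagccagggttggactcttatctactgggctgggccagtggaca
Fhl2 second promoter, chr1:43163957-43164046, minus strand: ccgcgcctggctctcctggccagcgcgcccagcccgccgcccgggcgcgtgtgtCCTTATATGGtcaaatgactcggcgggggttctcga
Ankrd1, chr19:36119955-36120059, minus strand: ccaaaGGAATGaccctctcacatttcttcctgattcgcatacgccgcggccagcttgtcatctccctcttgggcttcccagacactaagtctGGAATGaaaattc

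**Figure D1:**
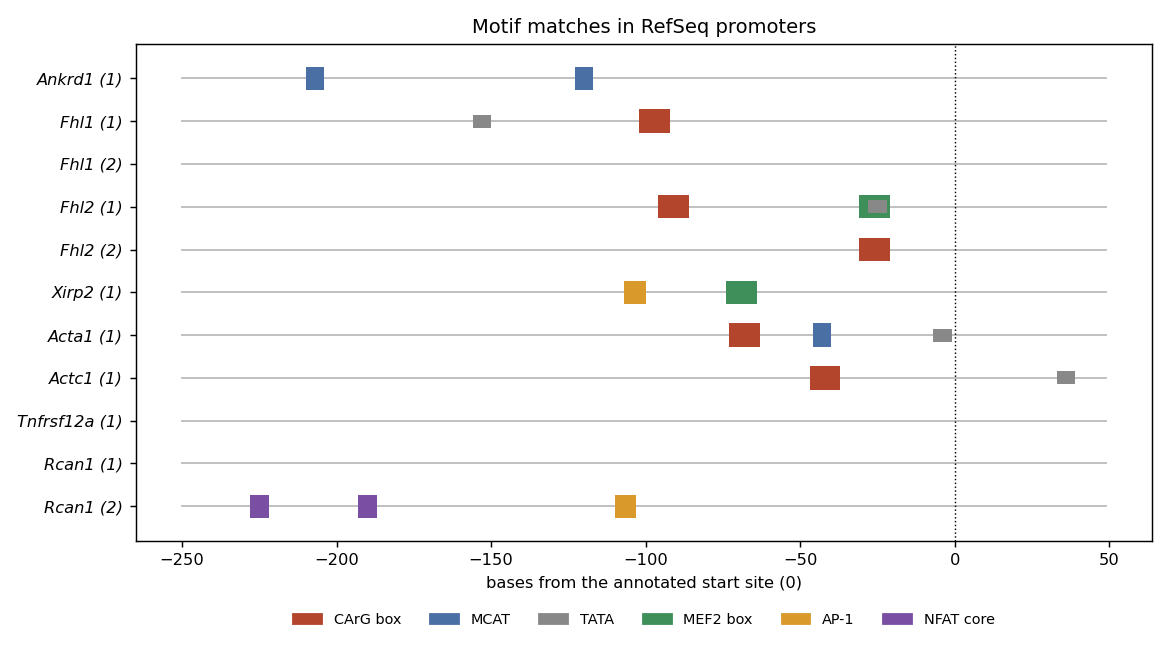
Motif matches in the 11 RefSeq promoters of 8 members, by distance in bases from the annotated start (0); each line is 1 promoter from 250 bases before to 49 after the start, and coloured blocks are matches on either strand. CArG boxes lie between −102 and −22 in 5 promoters, and no block appears for Tnfrsf12a.

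The microRNA that the oligonucleotide blocks is printed here because a direct effect would act through its seed (bases 2 to 8, in capitals). RefSeq gives its mature sequence at chr11:70235062-70235082 on the plus strand of GRCm38.p6.
miR-195a-5p: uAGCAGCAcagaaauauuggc
The matching site TGCTGCT was absent from the longest annotated 3′ UTR of 10 of 10 members, while 24.8% of the 13317 tested genes with such a UTR held it. The members' UTRs ran from 184 bases (Actc1) to 2271 (Xirp1), and the share of all genes was not adjusted for UTR length. Shorter or other seed matches, other forms of the 3′ UTR and coding sequence were not searched.

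Sorted by level per gene length, the members ran from an abundant structural actin to a weakly expressed cytokine. The deposited RPKM (reads scaled to gene length and library size) averaged 8227 for Actc1 over the 12 libraries, 1152 for Fhl2, 1094 for Ankrd1 and 353 for Acta1. Lower down came Xirp2 at 50.6, Fhl1 at 49.6, Rcan1 at 39.1, Tnfrsf12a at 37.9 and Xirp1 at 35.5 RPKM, with Tnfsf12 last at 4.62. Fhl2 and Ankrd1 could not be ordered, since their libraries overlapped, and the same held for each neighbouring pair in the run from Xirp2 to Xirp1. The steps from Actc1 to Fhl2, from Ankrd1 to Acta1, from Acta1 to Xirp2 and from Xirp1 to Tnfsf12 had no overlap between libraries. Between the highest and the lowest library the RPKM differed by 1.33-fold for Actc1, the steadiest member, and by 3.17-fold for Acta1, the most variable.

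**Figure D2:**
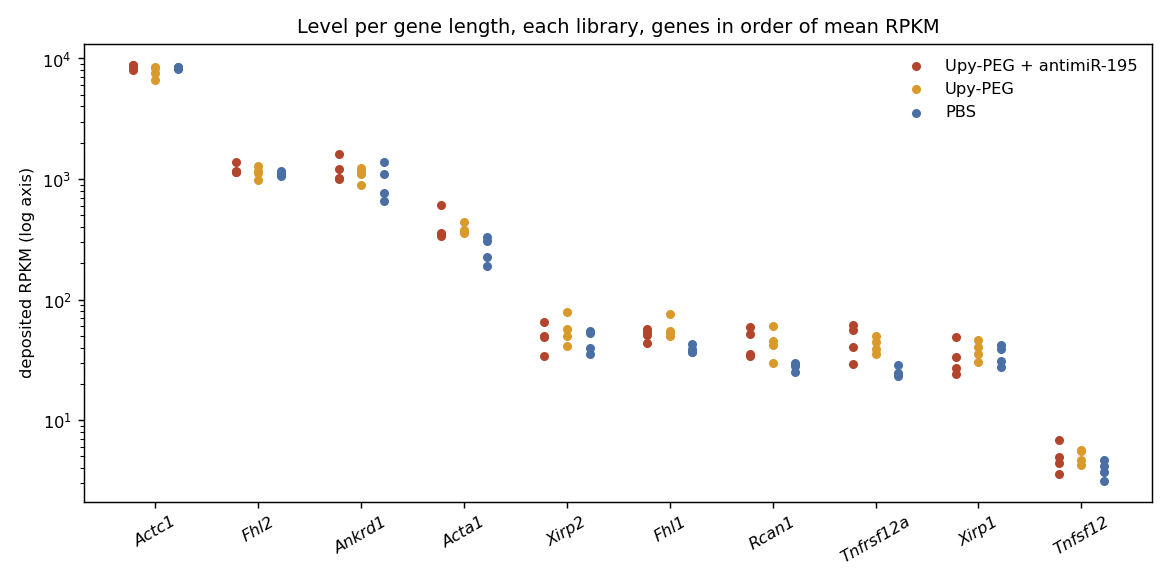
Deposited RPKM of each member (log axis) in every library, with genes in the order of their mean over 12 libraries; each point is 1 library and colours mark the 3 groups. Actc1 sits at 6675 RPKM or higher in every library and Tnfsf12 at 6.82 or lower, while the 5 genes from Xirp2 to Xirp1 lie in 1 band.

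Set against PBS, both hydrogel groups had higher values of Tnfrsf12a, Rcan1, Fhl1 and Acta1 in their means, and log2 differences of −0.022 with antimiR-195 and 0.028 without it for Xirp1. The ratios to PBS on the fold scale were 1.90 for Tnfrsf12a, 1.66 for Rcan1, 1.62 for Acta1 and 1.37 for Fhl1 with Upy-PEG and antimiR-195. With Upy-PEG alone they were 1.55 for Tnfrsf12a, 1.47 for Rcan1, 1.35 for Acta1 and 1.39 for Fhl1. Neither comparison gave a member an adjusted p below 0.05 over all genes in edgeR's quasi-likelihood test, so none of these differences is a call. The 2 comparisons share the 4 PBS libraries, so a resemblance between them is not independent evidence. In bulk tissue, fewer cells of a type and less RNA per cell cannot be told apart.

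Upy-PEG against PBS asks what the hydrogel adds to an injection of the same volume. In edgeR, 0% of the 14770 genes tested passed an adjusted p of 0.05, and 0 of 10 members did; the smallest adjusted p of any gene was 0.0809. At an unadjusted p under 0.05 stood 3 of 10 members, Fhl1, Rcan1 and Tnfrsf12a, all with higher values, beside 13.2% of all genes in either direction. The median log2 fold change of the members was 0.23 (8 of 10 above 0), and that of all genes tested was −0.028. All 4 Upy-PEG libraries lay above all 4 PBS libraries in CPM for 3 members, Fhl1, Acta1 and Tnfrsf12a, which compares with 5.91% of all genes. No member had all 4 Upy-PEG libraries below the PBS libraries, a pattern that 3.77% of genes showed.

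Other tools called some of these genes. DESeq2 called 3.53% of genes in Upy-PEG against PBS, with Fhl1 and Tnfrsf12a among them. Limma voom with sample weights called 6.22%, among them Fhl1, Tnfrsf12a and Acta1. An edgeR fit of only the 8 libraries compared called 1.18% including Tnfrsf12a, a fit with the gene length slope as a covariate 2.25% including Fhl1, and a fit without antimiR-195 replicates 2 and 3 2.31% including Fhl1 and Tnfrsf12a. The last of these drops 2 libraries that belong to neither group compared; it tested 15135 genes and gave log2 fold changes of 0.48 for Fhl1 and 0.64 for Tnfrsf12a, against 0.47 and 0.63 with all 12 libraries. In that fit 4 of 10 members, Tnfrsf12a, Fhl1, Rcan1 and Acta1, stood under an unadjusted p of 0.05, beside 17.9% of all genes.

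Upy-PEG with antimiR-195 against PBS compares the loaded gel with saline. Again 0% of genes and 0 of 10 members passed in edgeR, with a smallest adjusted p of 0.235. Unadjusted, 4 of 10 members stood under 0.05, Tnfrsf12a, Rcan1, Fhl1 and Acta1, all higher, beside 16.5% of all genes. Tnfrsf12a ranked 8th by p among the 14770 genes and Rcan1 37th. The members' median log2 fold change was 0.38 (9 of 10 above 0) and that of all genes 0.007. In 4 members, Fhl1, Actc1, Tnfrsf12a and Rcan1, all antimiR-195 libraries exceeded all PBS libraries in CPM, against 2.74% of all genes, and no member showed the opposite order, which 3.32% of genes did. DESeq2 called 0.778% of genes here, with Tnfrsf12a and Rcan1 among them. Without antimiR-195 replicates 2 and 3, unadjusted p-values under 0.05 were left for 4.48% of all genes and for 4 of 10 members, again Tnfrsf12a (0.96 log2), Rcan1 (0.76), Acta1 (0.42) and Fhl1 (0.31). The log2 fold changes of the other members were then 0.36 for Xirp2, 0.27 for Xirp1, 0.22 for Ankrd1, 0.10 for Fhl2, 0.065 for Tnfsf12 and 0.044 for Actc1.

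Upy-PEG with antimiR-195 against Upy-PEG compares groups that differ by the oligonucleotide. Members at an unadjusted p under 0.05 numbered 1 of 10, Actc1, beside 13.1% of all genes, and at an adjusted p under 0.05 there were 0 of 10 beside 0% of genes (smallest adjusted p 0.364, edgeR). The members' median log2 fold change was 0.21 (7 of 10 above 0), against −0.005 for all genes. Actc1 was also the 1 member whose antimiR-195 libraries all lay above the Upy-PEG libraries, an order found in 1.94% of genes, and none lay below, an order found in 2.46%. Without antimiR-195 replicates 2 and 3 the 1 of 10 members under an unadjusted p of 0.05 was Tnfrsf12a, beside 9.07% of all genes. The log2 fold changes were then 0.32 for Tnfrsf12a, 0.24 for Actc1, 0.23 for Xirp1, 0.20 for Rcan1, 0.15 for Ankrd1, Xirp2 and Fhl2, −0.025 for Acta1, −0.17 for Fhl1 and −0.21 for Tnfsf12. With libraries scaled by size alone and not by TMM, the median of all genes moved to −0.16 in this comparison, against 0.073 in Upy-PEG against PBS and −0.043 in antimiR-195 against PBS.

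**Figure D3:**
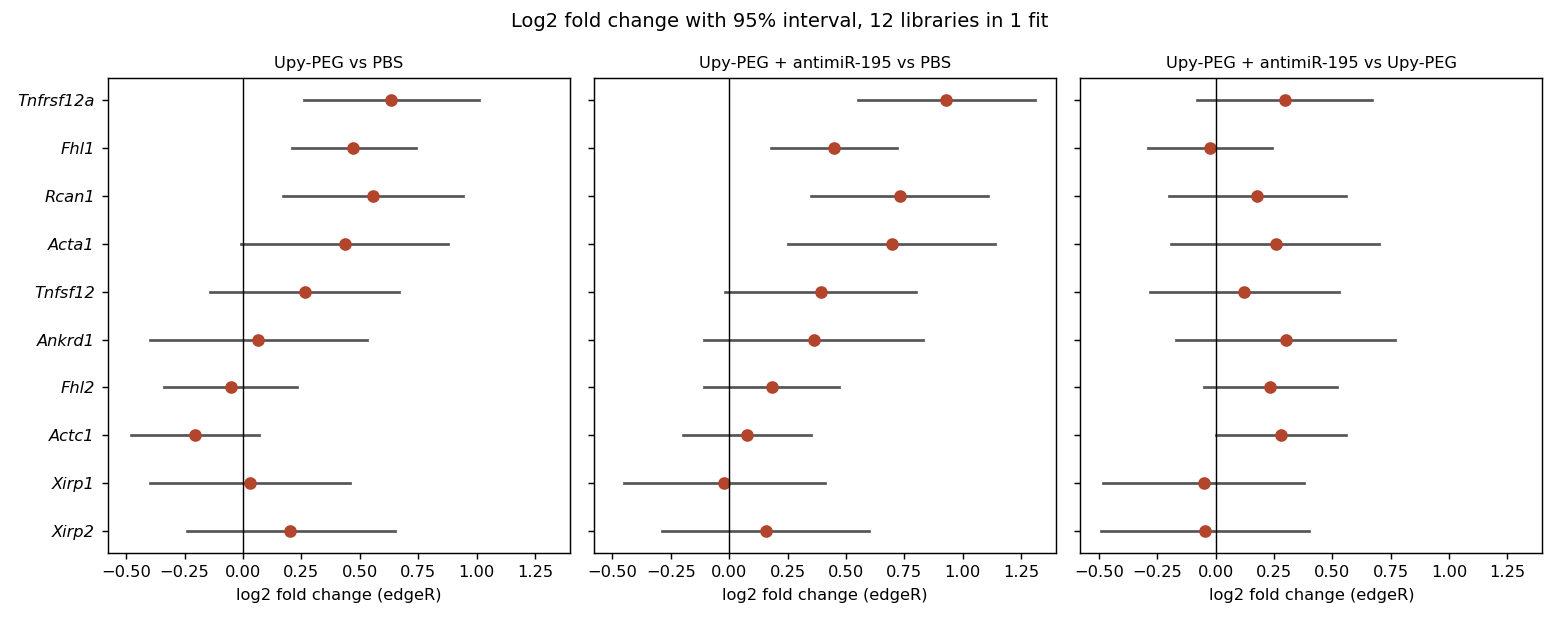
Log2 fold change of each member (horizontal axis) with its 95% interval from edgeR in the 3 comparisons; points are estimates from 1 fit of 12 libraries. The intervals of Tnfrsf12a, Fhl1 and Rcan1 lie above 0 in both comparisons with PBS, and Acta1 joins them only with antimiR-195; these intervals are not adjusted for the number of genes.

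Tnfrsf12a (ENSMUSG00000023905, chromosome 17, 23675445 to 23677468, minus strand, GRCm38) encodes Fn14, a small membrane receptor of injured and growing tissue. It measured 41.7, 61.2, 30.8 and 53.2 CPM in the antimiR-195 libraries, 42.05, 34.8, 42.2 and 33.2 CPM in the Upy-PEG libraries and 23.1, 24.9, 27.6 and 22.7 CPM in the PBS libraries. Every hydrogel library stood above every PBS library, while the groups with and without antimiR-195 overlapped, with antimiR-195 replicate 2 highest and replicate 3 lowest of those 8. Of all genes, 2.74% had all antimiR-195 libraries above PBS and 5.91% had all Upy-PEG libraries above PBS. The share of genes with both orders was not counted. The means were 46.7 ± 13.3, 38.1 ± 4.72 and 24.6 ± 2.22 CPM with antimiR-195, Upy-PEG and PBS (SD, n = 4 each). The log2 fold change was 0.93 ± 0.18 (SE) for antimiR-195 against PBS (edgeR adjusted p = 0.235) and 0.63 ± 0.18 for Upy-PEG against PBS (adjusted p = 0.123). DESeq2 gave adjusted p-values of 0.00142 and 0.0327 for the same 2 comparisons, limma voom 0.0241 for Upy-PEG against PBS. Between antimiR-195 and Upy-PEG the difference was 0.30 ± 0.17 (95% interval −0.08 to 0.67, edgeR adjusted p = 0.434). That difference was 0.13 without antimiR-195 replicate 2 and 0.44 without replicate 3.

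Tnfsf12 (ENSMUSG00000097328, chromosome 11, 69686250 to 69695849, minus strand), which encodes the ligand TWEAK, was the weakest member, with 236 to 497 counts in a library. Its levels were 14.2, 21.4, 16.3 and 10.7 CPM with antimiR-195, 12.3, 15.8, 12.6 and 16.7 CPM with Upy-PEG and 12.4, 10.01, 11.2 and 14.1 CPM with PBS, and all 3 groups overlapped. The log2 fold changes were 0.39 ± 0.19 for antimiR-195 against PBS, 0.27 ± 0.19 for Upy-PEG against PBS and 0.12 ± 0.19 for antimiR-195 against Upy-PEG (SE; edgeR adjusted p = 0.309, 0.618 and 0.759). Without antimiR-195 replicate 2, its highest library at 21.4 CPM, the first of these was 0.20 and the last was −0.075. Without antimiR-195 replicate 4, the lowest of that group, they were 0.54 and 0.27. With the gene length slope as a covariate the first was 0.044, and without antimiR-195 replicates 2 and 3 it was 0.065. Tnfsf12 shares 731 exonic bases on the same strand with the readthrough gene Tnfsfm13, and reads that fall on both would not be counted to either, so its level is uncertain. The ratio of receptor to ligand per length was 9.20, 8.98, 5.94 and 15.6 with antimiR-195, 10.7, 6.93, 10.5 and 6.25 with Upy-PEG and 5.86, 7.80, 7.74 and 5.04 with PBS. These ranges overlapped, with log2 differences of 0.53 for antimiR-195 against PBS and 0.36 for Upy-PEG against PBS (2-sided exact permutation test over libraries, p = 0.143 and 0.229, adjusted over 12 ratio tests 0.286 and 0.386).

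Rcan1 (ENSMUSG00000022951, chromosome 16, 92391953 to 92470867, minus strand) encodes a protein that binds and restrains calcineurin. It stood at 92.01, 135, 97.3 and 146 CPM in the antimiR-195 libraries, 133, 106, 104 and 73.4 CPM in the Upy-PEG libraries and 71.02, 66.3, 75.1 and 70.8 CPM in the PBS libraries. The PBS libraries were close together, with an SD of 3.63 CPM against 27.03 and 24.2 CPM with antimiR-195 and Upy-PEG. All antimiR-195 libraries lay above them, and so did 3 of 4 Upy-PEG libraries, replicate 4 falling inside the PBS range. The log2 fold change was 0.73 ± 0.18 for antimiR-195 against PBS (SE, edgeR adjusted p = 0.253; DESeq2 0.036) and 0.56 ± 0.18 for Upy-PEG against PBS (edgeR adjusted p = 0.177). For antimiR-195 against Upy-PEG it was 0.18 ± 0.18 (95% interval −0.20 to 0.56), and it was 0.043 without Upy-PEG replicate 4 and 0.31 without Upy-PEG replicate 1. The counts are per gene and do not separate the transcripts of its upstream and internal promoters.

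**Figure D4:**
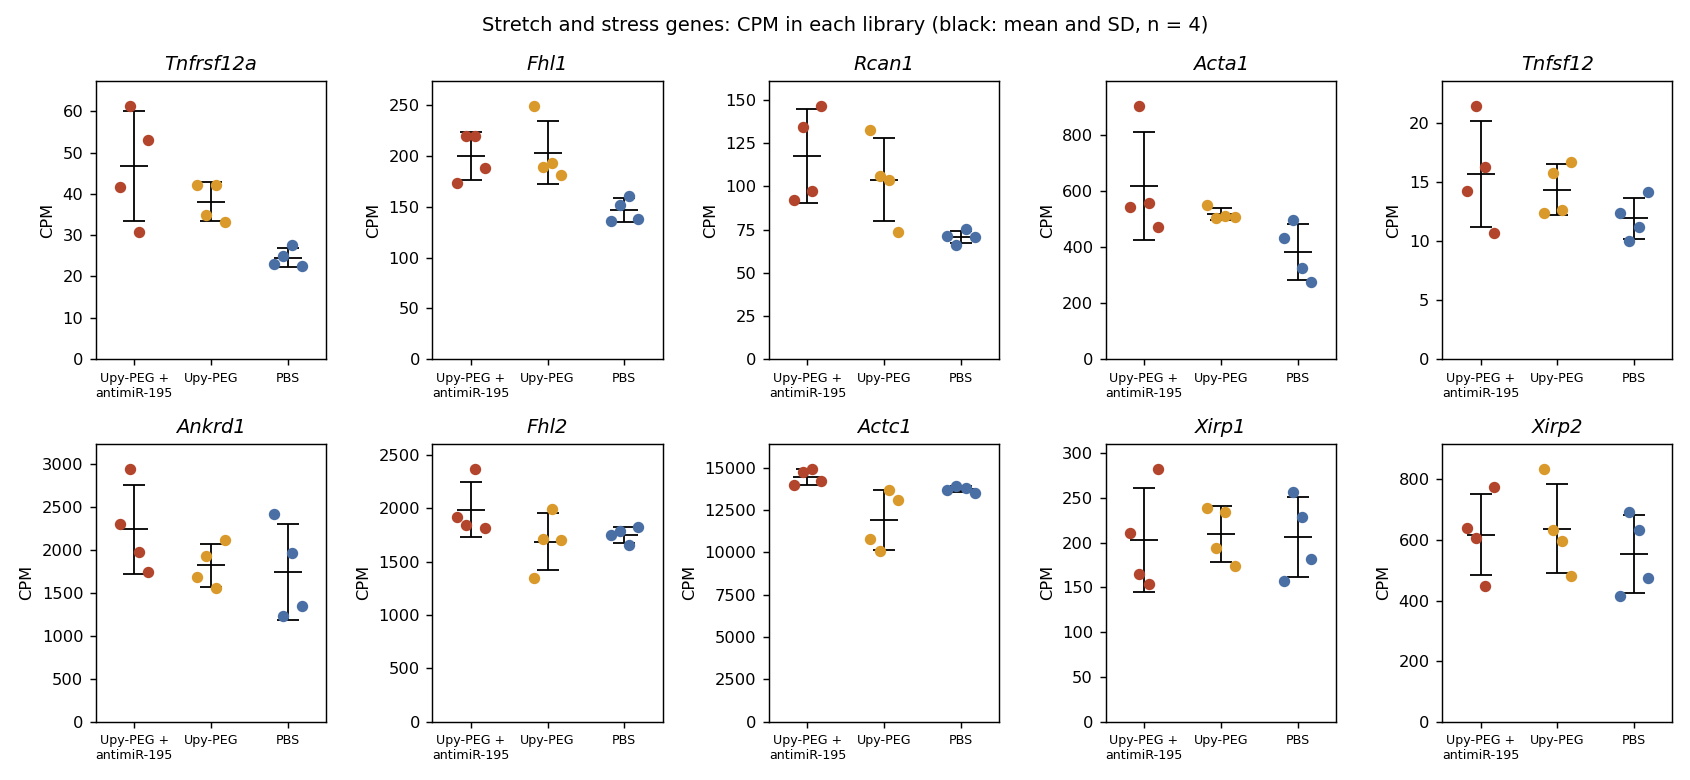
TMM-scaled CPM of each member in every library (points), with the mean and SD of 4 libraries per group (black), antimiR-195, Upy-PEG and PBS from left to right. For Tnfrsf12a and Fhl1 no hydrogel library comes down to the PBS range, an order not counted over all genes, whereas for Xirp1 and Xirp2 the 3 groups overlap.

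Fhl1 (ENSMUSG00000023092, chromosome X, 56731787 to 56793346, plus strand) encodes a LIM-domain protein that sits on the elastic part of titin in heart muscle. It measured 173, 220.1, 219 and 188 CPM with antimiR-195, 249, 189, 193 and 182 CPM with Upy-PEG and 136, 152, 161 and 138 CPM with PBS. No hydrogel library reached down to the PBS range, and Upy-PEG replicate 1 was the highest of all. The share of all genes with every hydrogel library above PBS was not counted. The means were 200.1 ± 23.5, 203 ± 30.9 and 147 ± 11.8 CPM with antimiR-195, Upy-PEG and PBS (SD, n = 4 each). Fhl1 had log2 fold changes of 0.45 ± 0.12 for antimiR-195 against PBS (SE, edgeR adjusted p = 0.253) and 0.47 ± 0.12 for Upy-PEG against PBS (adjusted p = 0.114; 0.0144 in DESeq2 and 0.0304 in limma voom). Without Upy-PEG replicate 1 the difference between Upy-PEG and PBS was 0.37. Between antimiR-195 and Upy-PEG it was −0.023 ± 0.12 (95% interval −0.29 to 0.24), and its sign turned when that replicate was left out (0.087).

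Fhl2 (ENSMUSG00000008136, chromosome 1, 43123074 to 43196984, minus strand), the heart-enriched relative of Fhl1, stood at 1920.3, 1841, 2367 and 1817 CPM with antimiR-195, 1348, 1708, 1991 and 1706 CPM with Upy-PEG and 1746, 1783, 1651 and 1823 CPM with PBS. All groups overlapped, Upy-PEG replicate 1 being the lowest library and antimiR-195 replicate 3 the highest. Its log2 fold changes were 0.18 ± 0.13 for antimiR-195 against PBS, −0.053 ± 0.13 for Upy-PEG against PBS and 0.23 ± 0.13 for antimiR-195 against Upy-PEG (SE; edgeR adjusted p = 0.457, 0.913 and 0.424). Without antimiR-195 replicate 3 the first was 0.085 and the last 0.13. The sign for Upy-PEG against PBS flipped to 0.04 with libraries scaled by size alone. Per length, the ratio of Fhl2 to Fhl1 was 26.4, 19.9, 25.7 and 22.97 with antimiR-195, 12.9, 21.5, 24.5 and 22.3 with Upy-PEG and 30.6, 27.9, 24.4 and 31.4 with PBS. The ratio was lowest in Upy-PEG replicate 1, which held the highest Fhl1 and the lowest Fhl2. The mean log2 ratio differed by −0.53 for Upy-PEG against PBS and by −0.27 for antimiR-195 against PBS (2-sided exact permutation test, p = 0.0571 and 0.0857, adjusted over 12 tests 0.171 and 0.206).

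Ankrd1 (ENSMUSG00000024803, chromosome 19, 36111961 to 36120099, minus strand) encodes the cardiac ankyrin repeat protein, which moves between titin and the nucleus. Its libraries held 2297, 2939, 1979 and 1741 CPM with antimiR-195, 1688, 1922, 1552 and 2111 CPM with Upy-PEG and 2418, 1231, 1968 and 1347 CPM with PBS. The PBS libraries themselves differed, replicates 1 and 3 lying above replicates 2 and 4, and all groups overlapped. The log2 fold change was 0.36 ± 0.22 for antimiR-195 against PBS and 0.30 ± 0.22 for antimiR-195 against Upy-PEG (SE; edgeR adjusted p = 0.378 and 0.509). Without antimiR-195 replicate 2 these were 0.20 and 0.13, while without PBS replicate 1 the first was 0.56. For Upy-PEG against PBS it was 0.063 ± 0.22 (95% interval −0.40 to 0.53), and its sign depended on which library was left out.

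Acta1 (ENSMUSG00000031972, chromosome 8, 123891769 to 123894751, minus strand) encodes skeletal muscle α-actin, the fetal sarcomeric actin of the ventricle. It measured 544, 904, 557 and 473 CPM with antimiR-195, 549.9, 504, 511 and 508 CPM with Upy-PEG and 433, 496, 327 and 276 CPM with PBS. The Upy-PEG libraries were tightly grouped and all lay above the PBS libraries, although replicate 2 of PBS came within 10 CPM of them. AntimiR-195 replicate 4 fell inside the PBS range in CPM, and antimiR-195 replicate 2 stood far above every other library. In deposited RPKM, which are not TMM-scaled, all antimiR-195 libraries (353, 607, 356 and 334 RPKM) and all Upy-PEG libraries (438, 377, 359 and 362 RPKM) lay above the PBS libraries (306, 328, 227 and 191 RPKM). The share of all genes with this order in RPKM was not counted. The log2 fold change was 0.69 ± 0.21 for antimiR-195 against PBS (SE, edgeR adjusted p = 0.253) and 0.44 ± 0.21 for Upy-PEG against PBS (adjusted p = 0.39; 0.0428 in limma voom). Without antimiR-195 replicate 2 the difference from PBS was 0.46, and without replicates 2 and 3 it was 0.42. Between antimiR-195 and Upy-PEG the difference of 0.26 ± 0.21 became 0.01 without replicate 2 and −0.025 without replicates 2 and 3.

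Actc1 (ENSMUSG00000068614, chromosome 2, 114047282 to 114053548, minus strand), cardiac α-actin, was the most abundant member. Its libraries held 13963, 14746, 14927 and 14208 CPM with antimiR-195, 10779.7, 10082, 13695 and 13101 CPM with Upy-PEG and 13681, 13909.7, 13814 and 13488 CPM with PBS. PBS and antimiR-195 libraries were tight, while Upy-PEG replicates 1 and 2 lay well below every library of the other groups. The log2 fold change was −0.20 ± 0.13 for Upy-PEG against PBS, 0.28 ± 0.13 for antimiR-195 against Upy-PEG and 0.076 ± 0.13 for antimiR-195 against PBS (SE; edgeR adjusted p = 0.562, 0.38 and 0.757). The first of these was −0.13 without Upy-PEG replicate 2. In deposited RPKM the antimiR-195 libraries (8034, 8773, 8444 and 8867 RPKM) overlapped with the Upy-PEG libraries (7601, 6675, 8526 and 8278 RPKM), and likewise with the PBS libraries (8572, 8149.5, 8508 and 8293 RPKM), so the separation of Actc1 was seen in TMM-scaled CPM and not in RPKM.

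The share of Acta1 in the 2 sarcomeric actins does not depend on how libraries are scaled. Per length it was 4.21, 6.47, 4.04 and 3.63 percent with antimiR-195, 5.45, 5.34, 4.04 and 4.19 percent with Upy-PEG and 3.45, 3.87, 2.60 and 2.26 percent with PBS. All Upy-PEG libraries had a higher share than all PBS libraries, and 3 of 4 antimiR-195 libraries did, replicate 4 falling below PBS replicate 2. The means were 4.59% ± 1.28 for antimiR-195, 4.75% ± 0.741 for Upy-PEG and 3.04% ± 0.744 for PBS (SD, n = 4 each). The Acta1 to Actc1 ratio was 1.61-fold higher with Upy-PEG than with PBS (2-sided exact permutation test over libraries, p = 0.0286, the smallest that 4 against 4 can give; adjusted over 12 ratio tests 0.171). For antimiR-195 against PBS it was 1.53-fold (p = 0.0571, adjusted 0.171, exact permutation test), and for antimiR-195 against Upy-PEG 0.947-fold (p = 0.857). These genes are nearly identical in coding sequence, and reads that match both equally were not counted, so the share rests on uniquely assigned reads. Among the genes with a CArG box, Upy-PEG against PBS gave log2 fold changes of 0.47 for Fhl1, 0.44 for Acta1, −0.053 for Fhl2 and −0.20 for Actc1. Among those with a searched promoter and no CArG box, the values were 0.63 for Tnfrsf12a, 0.56 for Rcan1, 0.20 for Xirp2 and 0.063 for Ankrd1. No promoter of Xirp1 or Tnfsf12 was searched, and a part of the CArG box in these values was not tested.

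**Figure D5:**
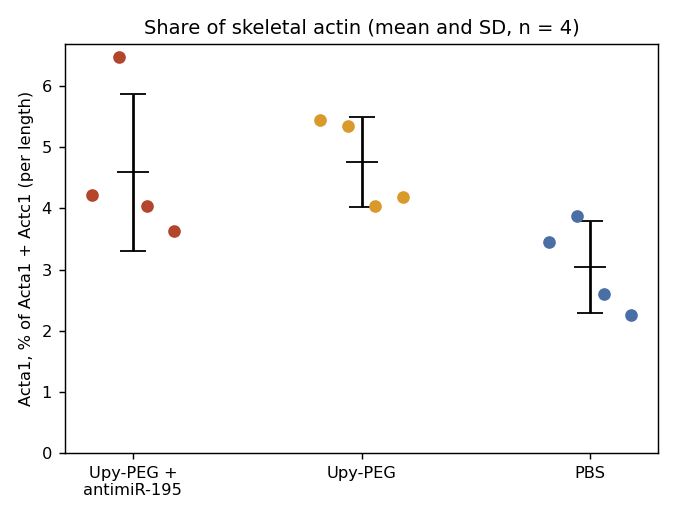
Acta1 as a percent of Acta1 plus Actc1 per gene length (vertical axis, from 0), in every library (points), with the mean and SD of 4 libraries per group. The Upy-PEG points, from 4.04 to 5.45 percent, all lie above the PBS points, which reach 3.87 percent.

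Xirp1 (ENSMUSG00000079243, chromosome 9, 120013755 to 120023598, minus strand) and Xirp2 (ENSMUSG00000027022, chromosome 2, 67446002 to 67526614, plus strand) encode the Xin proteins of the intercalated disc. Xirp1 stood at 211, 165, 153 and 282 CPM with antimiR-195, 238, 194, 234 and 174 CPM with Upy-PEG and 158, 256, 229 and 182 CPM with PBS. Xirp2 stood at 638, 606, 449 and 776 CPM with antimiR-195, 835, 634, 597 and 483 CPM with Upy-PEG and 417, 692, 632 and 476 CPM with PBS. For both genes the 3 groups overlapped, and in the antimiR-195 group replicate 4 was the highest and replicate 3 the lowest for both. Xirp1 had log2 fold changes of −0.022 ± 0.20 for antimiR-195 against PBS and 0.028 ± 0.20 for Upy-PEG against PBS, with 95% intervals of −0.45 to 0.41 and −0.40 to 0.46. Xirp2 had 0.16 ± 0.21 and 0.20 ± 0.21, with intervals of −0.29 to 0.60 and −0.24 to 0.65. For Xirp2 the antimiR-195 value was 0.026 without antimiR-195 replicate 4 and 0.28 without PBS replicate 2, and the Upy-PEG value was 0.05 without Upy-PEG replicate 1 and 0.33 without PBS replicate 2. Both are long genes (5839 and 11979 bases in the authors' length), and with the gene length slope as a covariate the values for antimiR-195 against PBS were 0.30 for Xirp1 and 0.47 for Xirp2.

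The Xirp1 to Xirp2 ratio per length was 0.678, 0.559, 0.702 and 0.747 with antimiR-195, 0.586, 0.629, 0.804 and 0.738 with Upy-PEG and 0.776, 0.760, 0.744 and 0.783 with PBS. The PBS libraries agreed to within an SD of 0.0174, although the genes' own levels varied between the same libraries by SDs of 44.8 and 129 CPM. The mean log2 ratio differed by −0.20 for antimiR-195 against PBS and −0.16 for Upy-PEG against PBS (2-sided exact permutation test, p = 0.0571 and 0.257, adjusted over 12 tests 0.171 and 0.386). Xirp2 overlaps the antisense gene Gm13601 by 168 exonic bases on the opposite strand; the kit is stranded, and whether the counting used strand is not given in the sources used here.

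Companion genes of the members were taken from lists of the same pathways and structures. None of their members passed an adjusted p of 0.05 in edgeR with all 12 libraries in any of the 3 comparisons, so the counts below are of unadjusted p-values under 0.05, to be read beside the 13.2% of all genes in Upy-PEG against PBS, 13.1% in antimiR-195 against Upy-PEG and 16.5% in antimiR-195 against PBS. Among relatives of the ankyrin repeat and LIM genes, 2 of 8 tested were higher in Upy-PEG against PBS and 1 of 8, Csrp2, in antimiR-195 against PBS. Csrp2, a LIM protein of smooth muscle and remodelling tissue, averaged 39.2 ± 20.8 CPM in the antimiR-195 libraries, 43.4 ± 14.6 CPM in the Upy-PEG libraries and 22.8 ± 3.37 CPM in the PBS libraries (SD, 4 per group). Its log2 fold change for Upy-PEG against PBS was 0.93 ± 0.31 (edgeR adjusted p = 0.201), and 0.94 ± 0.21 in the fit without antimiR-195 replicates 2 and 3 (adjusted p = 0.0419). For antimiR-195 against PBS it was 0.78 ± 0.31 with all libraries (adjusted p = 0.273) and 0.15 ± 0.26 without those replicates. Csrp1, its relative, averaged 56.8 ± 8.83, 63.7 ± 10.99 and 47.3 ± 3.14 CPM in the same groups, a log2 fold change of 0.43 ± 0.14 (adjusted p = 0.167, edgeR).

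Of 24 proteins of titin and the Z-disc, 2 were higher and 3 lower in Upy-PEG against PBS, and 3 higher and 1 lower in antimiR-195 against PBS. Trim63 (MuRF1, a ubiquitin ligase at titin) averaged 207 ± 11.9 CPM with antimiR-195, 171 ± 14.3 CPM with Upy-PEG and 204 ± 18.8 CPM with PBS, a log2 fold change of −0.26 ± 0.10 for Upy-PEG against PBS and 0.28 ± 0.10 for antimiR-195 against Upy-PEG (edgeR adjusted p = 0.275 and 0.364). Bag3, a co-chaperone of tension-damaged filamin, had −0.26 ± 0.11 for Upy-PEG against PBS (adjusted p = 0.333). Of 16 intercalated disc genes, 0 stood under 0.05 in Upy-PEG against PBS and 1 higher and 1 lower in antimiR-195 against PBS. These were Pkp2, a plakophilin (0.21 ± 0.10 log2, edgeR adjusted p = 0.293), and Dsp, desmoplakin (−0.42 ± 0.18 log2, adjusted p = 0.281). Dsp measured 1313, 764, 832 and 1256 CPM with antimiR-195, 1170.1, 1104, 1087 and 1225 CPM with Upy-PEG and 1215, 1600.4, 1549 and 1223 CPM with PBS, antimiR-195 replicates 2 and 3 being the lowest. Without those libraries its log2 fold change against PBS was −0.12 and that of Pkp2 was 0.33.

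The other actin isoforms all had positive log2 fold changes in Upy-PEG against PBS, 1 of 4 at an unadjusted p under 0.05, and all had negative ones in antimiR-195 against Upy-PEG, again 1 of 4. Actb, the cytoplasmic β-actin of nonmuscle cells, measured 627, 1055, 910.1 and 778 CPM with antimiR-195, 1264, 995, 779 and 873 CPM with Upy-PEG and 625, 535, 724 and 662 CPM with PBS. Its Upy-PEG libraries all lay above its PBS libraries, and its antimiR-195 libraries overlapped both (log2 fold change 0.62 ± 0.18 for Upy-PEG against PBS, edgeR adjusted p = 0.136). Actg1, the γ isoform, had −0.55 ± 0.17 for antimiR-195 against Upy-PEG (adjusted p = 0.364). Leaving out antimiR-195 replicates 2 and 3 gave −0.45 ± 0.22. Actb and Actg1 have processed pseudogenes, so their uniquely assigned counts are uncertain.

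Of 20 factors and targets of the SRF and TEAD pathways, 2 were higher and 1 lower in Upy-PEG against PBS, and 1 higher and 2 lower in antimiR-195 against PBS. Ccn2 (CTGF, a matricellular TEAD target) averaged 139.8 ± 47.7 CPM with antimiR-195, 157 ± 59.1 CPM with Upy-PEG and 90.9 ± 17.5 CPM with PBS, with 0.79 ± 0.27 log2 for Upy-PEG against PBS (edgeR adjusted p = 0.202). Tpm4, a cytoskeletal tropomyosin, had 0.49 ± 0.15 (adjusted p = 0.174). The 1 lower gene was Amotl2, with −0.44 ± 0.20 log2 for Upy-PEG against PBS (edgeR adjusted p = 0.37). The list had a median log2 fold change of 0.06 in Upy-PEG against PBS and −0.05 in antimiR-195 against PBS. A list of 14 genes around TWEAK and Fn14 held receptor adaptors, NF-κB factors, the related ligand Tnfsf13 and Cd163, a macrophage scavenger receptor that binds TWEAK. Of these, 0 stood under 0.05 in Upy-PEG against PBS and 1 lower in antimiR-195 against PBS, which was Cd163 (−0.60 ± 0.26 log2, edgeR adjusted p = 0.284; −0.51 without antimiR-195 replicates 2 and 3). Nfkb2, the precursor of the noncanonical NF-κB pathway, averaged 28.8 ± 1.92 CPM with antimiR-195, 32.7 ± 1.02 CPM with Upy-PEG and 29.1 ± 0.993 CPM with PBS. Traf5, an adaptor of TNF receptors, averaged 3.81 ± 0.539, 4.19 ± 0.475 and 3.46 ± 0.0820 CPM in those groups. In Upy-PEG against PBS these gave 0.17 ± 0.08 and 0.28 ± 0.15 on the log2 scale (edgeR adjusted p = 0.398 and 0.467).

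Of 16 genes of calcineurin and NFAT signalling, the pathway Rcan1 restrains, 0 stood under 0.05 in Upy-PEG against PBS, and 13 of 16 had values below PBS. In antimiR-195 against PBS 1 was higher and 4 lower. Mef2d, a calcineurin-responsive transcription factor, measured 167, 96.3, 122 and 173 CPM with antimiR-195, 169.5, 139.6, 167 and 147 CPM with Upy-PEG and 158, 239.6, 199 and 183 CPM with PBS. The groups overlapped, with PBS replicate 2 the highest and antimiR-195 replicates 2 and 3 the lowest (log2 fold change −0.48 ± 0.18 for antimiR-195 against PBS, edgeR adjusted p = 0.26). Without those 2 libraries the Mef2d value was −0.19. Akap5, an anchor of calcineurin, was scarce at 3.57 ± 0.870, 2.99 ± 0.808 and 4.08 ± 1.02 CPM with antimiR-195, Upy-PEG and PBS.

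Without antimiR-195 replicates 2 and 3, an unadjusted p under 0.05 in antimiR-195 against PBS was found for 4.48% of all genes, and the counts of the companion lists changed as well. Of the relatives of the ankyrin repeat and LIM genes 1 of 8 was higher, Ankrd23, in place of Csrp2. Of the titin and Z-disc proteins 2 were higher and 0 lower, and of the intercalated disc genes 3 were higher (Pkp2, Cxadr and Gja1) and 0 lower. The SRF and TEAD list had 0 higher and 1 lower, and the other actins, the TWEAK list and the calcineurin list had 0 in either direction. The cause was not tested.

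Markers of other cells differed between the same groups. The summed level of 8 fibroblast markers was 2690.4 to 4510.1 CPM with antimiR-195, 3896 to 8302 CPM with Upy-PEG and 2875 to 4748 CPM with PBS. The sum of 8 macrophage markers was 764 to 1519 CPM with antimiR-195, 1095 to 1627 CPM with Upy-PEG and 573 to 885 CPM with PBS, so every Upy-PEG library exceeded every PBS library. The sum of 12 cardiomyocyte markers was 89989 to 106930.0 CPM with antimiR-195, 65743 to 92340.2 CPM with Upy-PEG and 92190.0 to 112932 CPM with PBS. The medians were 101850.0, 83281 and 100143 CPM in that order, and the ranges overlapped. In Upy-PEG against PBS 12 of 12 cardiomyocyte markers had negative log2 fold changes (median −0.30). At an unadjusted edgeR p under 0.05 stood 1 of them, 8 of 8 macrophage and 5 of 8 fibroblast markers, beside 13.2% of all genes. In antimiR-195 against Upy-PEG 10 of 12 cardiomyocyte markers were positive (median 0.48), 7 under 0.05, beside 13.1% of all genes. Without antimiR-195 replicates 2 and 3, 12 were positive and 0 under 0.05. The part of these shifts in the values of Tnfrsf12a, which fibroblasts also express, of Fhl1 and of Actc1 was not tested. Acta1 is also the main actin of skeletal muscle. Of 10 skeletal muscle markers, 7, Myh1, Myh2, Myh4, Tnnc2, Actn3, Pvalb and Myog, were under 1 CPM in every library, and the 10 summed to 5.38 to 9.47 CPM with antimiR-195, 5.91 to 8.33 CPM with Upy-PEG and 4.07 to 5.60 CPM with PBS. Every Upy-PEG sum exceeded every PBS sum. The 4 skeletal markers tested were all positive, at 0.05 to 1.91 log2 in Upy-PEG against PBS and 0.15 to 1.58 in antimiR-195 against PBS. Under an unadjusted edgeR p of 0.05 stood 1 and 2 of them, beside 13.2% and 16.5% of all genes. Acta1 exceeded 275 CPM in every library, and the part of skeletal muscle RNA in its values was not tested. Atrial markers summed to 30.3 to 102 CPM with antimiR-195, 21.97 to 57.7 CPM with Upy-PEG and 31.6 to 55.03 CPM with PBS, with Bmp10 at 0 counts in every library. The sums were 651 to 919, 753 to 913 and 817 to 993 CPM for endothelial markers, 395 to 554, 411 to 703 and 419.6 to 574 CPM for smooth muscle markers and 547 to 1314, 253 to 549.7 and 480.0 to 1456 CPM for erythroid markers, each with antimiR-195, Upy-PEG and PBS. Erythroid markers were lower for 5 of 5 in Upy-PEG against PBS (median −0.97 log2) and higher for 5 of 5 in antimiR-195 against Upy-PEG (1.03). All stood under an unadjusted edgeR p of 0.05, beside 13.2% and 13.1% of all genes. Without antimiR-195 replicates 2 and 3, 0 did in the latter. Of 7 endothelial markers, 7 were negative in Upy-PEG against PBS, 2 of them under 0.05.

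For each member, the genes outside the members whose log2 CPM followed it most closely over the 12 libraries are given. Other members were left out of this search. It is a description, since the points share the groups, the depth and the library differences above. Tnfrsf12a ran closest to Hspa1b, a heat shock gene (Pearson r = 0.944), then to Calhm5 (0.939) and Nppb, the B-type natriuretic peptide (0.895). Nppb measured 275, 643, 301 and 378 CPM with antimiR-195, 269, 237, 248 and 201 CPM with Upy-PEG and 188, 128, 166 and 98.04 CPM with PBS. Every hydrogel library stood above every PBS library and antimiR-195 replicate 2 was the highest, as for Tnfrsf12a. Nppb was picked by its likeness to Tnfrsf12a in these libraries, so the shared order is not separate evidence. The share of all genes with this order was not counted. Hspa1b was scarce at 1.39 to 5.50 CPM and has a near-identical copy, Hspa1a, so its counts are uncertain. Rcan1 shared Calhm5 (0.897) and Hspa1b (0.888) with Tnfrsf12a, after Tnnt3 (0.911), a fast troponin. Tnnt3 was also scarce, at 0.928, 2.02, 1.66 and 2.44 CPM with antimiR-195, 3.98, 1.98, 1.75 and 1.18 CPM with Upy-PEG and 0.586, 0.467, 0.749 and 0.557 CPM with PBS.

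Fhl1 ran closest to Mum1l1 (0.94), Serpinb1c (0.921) and Sprr1a (0.918), a small proline-rich protein gene of stressed heart muscle. Sprr1a measured 33.97, 162, 59.6 and 47.02 CPM with antimiR-195, 196, 91.5, 51.7 and 76.02 CPM with Upy-PEG and 8.44, 13.96, 39.5 and 17.2 CPM with PBS. Its highest library was Upy-PEG replicate 1, as for Fhl1, and its antimiR-195 group overlapped with PBS replicate 3. Sprr1a was picked by its likeness to Fhl1 in these libraries, so the shared highest library is not separate evidence. For the other members the closest genes were Nsun2 for Ankrd1 (0.931), Rab12 for Fhl2 (0.949, after a gene ID without a symbol at 0.951), Gm12295 for Xirp1 (0.953), Dzip3 for Xirp2 (0.913), Zfp954 for Acta1 (0.917), Eid2b for Actc1 (0.951) and Cd302 for Tnfsf12 (0.963). The cardiac genes Xirp1 and Xirp2 shared no gene among their closest 3 outside the members, and neither did Acta1 and Actc1. The likeness of members to each other was not measured, so this does not show that these pairs moved apart.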

How the data were processed

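The submitters' processing notes name STAR, HTSeq, DESeq and the build GRCm38; versions are not given in the sources used here. The authors deposited raw counts per gene and library, and RPKM values (per kilobase of gene and total reads, by the authors). Library preparation was stranded and selected polyadenylated RNA, per the labels. The series count table equalled the per-sample files in all 459516 cells compared. Reads on no gene (6.25% to 8.77%) and ambiguous reads (0.664% to 0.898%) were left out. Alignments that were not unique were left out as well, at 0.579 to 0.921 per count on genes. They were most frequent in antimiR-195 replicates 2 and 3, at 0.921 and 0.893, against 0.749 or less in the other libraries.

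Tests used edgeR 4.0.16 (R 4.3.3) on counts of all 12 libraries: filterByExpr, TMM, glmQLFit and glmQLFTest leaving 9 residual degrees of freedom, with p-values adjusted by Benjamini-Hochberg over 14770 genes and a threshold of 0.05. The fit was tested on simulated counts with 200 of 14639 genes changed 4-fold, of which it recovered 100%, with 18 false calls. The members' differences were smaller than 4-fold, so the simulation does not measure the power to call them. CPM are TMM-scaled. Ratios of counts per length were compared by 2-sided exact permutation over 70 assignments, adjusted over 12 tests.

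Alternatives were DESeq2 1.42.0, limma 3.58.1 (voom with sample weights, and limma-trend on log2(RPKM + 0.1)), RLE factors, library size alone, other filters, a length slope covariate, both hydrogel groups against PBS, and fits without libraries. Replicate numbers follow deposition order and pair nothing. The naming rule took all 10 members and the 2 lowest p-values of each companion list in Upy-PEG against PBS. It also took the 3 genes outside the members that were most like each member. A few more companion genes are named to show which genes a count held. Members and lists were chosen with earlier results of these data known. Symbols and positions came from GENCODE mouse release 21, promoters and microRNAs from RefSeq.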

Additional observations from a re-analysis of the deposited data

Results flagged for a closer look

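Acta1 in Upy-PEG replicate 1, at 549.9 CPM, stood apart from the other Upy-PEG libraries, which lay between 504 and 511 CPM. Its gap to the nearest, divided by the range of the group, was 0.845, above Dixon's critical value for 4 samples. The group's whole range was narrow beside that of antimiR-195 (473 to 904 CPM) and of PBS (276 to 496 CPM), and Upy-PEG replicate 1 also held the highest Fhl1 and Xirp2. Of 42 groups of 4 values checked this was the 1 that passed the limit, and chance passes about 1 in 20.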

How the results depend on the processing

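No paired analysis was possible because the labels give no replicate numbers. With alternatives for the 10 members counted over settings, the log2 fold change kept its direction and stayed short of an adjusted p of 0.05 in 169 cases for Upy-PEG against PBS, 172 for antimiR-195 against PBS and 159 for antimiR-195 against Upy-PEG. It kept its direction and passed in 9, 2 and 0 cases, and changed sign in 12, 6 and 21. Where values or counts moved, the cause was not tested.

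Counts of genes past an adjusted p of 0.05 moved most. For Upy-PEG against PBS the count was 0 in edgeR, 69 with no filter, 332 with the gene length slope as a covariate, 349 without antimiR-195 replicates 2 and 3, 511 in DESeq2, 918 in limma voom with sample weights and 172 with only the libraries compared. Leaving out 1 library gave 0 to 46 genes, the 46 without Upy-PEG replicate 3. Members past the threshold numbered 1 with the length slope, 2 without antimiR-195 replicates 2 and 3, 2 in DESeq2, 3 in limma voom and 1 with only the libraries compared. For antimiR-195 against PBS, DESeq2 gave 97 genes with 2 members, and no filter and limma voom gave 1 gene each. For antimiR-195 against Upy-PEG, DESeq2 gave 16 genes and no member.

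Signs turned mainly for members close to 0. In Upy-PEG against PBS, Fhl2 was 0.064 with both hydrogel groups set against PBS, 0.04 with library size alone and 0.035 in limma-trend on RPKM, and Xirp1 was −0.094 in limma voom. Leaving out 1 library gave −0.072 to 0.26 for Ankrd1, −0.13 to 0.046 for Fhl2 and −0.082 to 0.15 for Xirp1. In antimiR-195 against PBS, Xirp1 was 0.30 with the length slope, 0.27 without antimiR-195 replicates 2 and 3, and −0.23 to 0.10 with 1 library left out. In antimiR-195 against Upy-PEG, the length slope gave 0.19 for Xirp1, 0.21 for Xirp2 and −0.17 for Tnfsf12. Dropping antimiR-195 replicates 2 and 3 gave 0.23, 0.15 and −0.21 for these genes and −0.025 for Acta1. Limma voom gave 0.073 for Xirp1, 0.066 for Xirp2 and −0.11 for Tnfsf12, which was also −0.03 with library size alone and −0.057 in limma-trend. Leaving out 1 library gave −0.082 to 0.087 for Fhl1, −0.25 to 0.053 for Xirp1, −0.17 to 0.11 for Xirp2 and −0.075 to 0.27 for Tnfsf12.

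The ratios were tested again with 1 library left out, where 4 against 3 allows a smallest exact permutation p of 0.0286. Acta1 to Actc1 ran over log2 differences of 0.55 to 0.82 for Upy-PEG against PBS (exact permutation p = 0.0571 without any 1 Upy-PEG library), 0.42 to 0.74 for antimiR-195 against PBS and −0.27 to 0.028 for antimiR-195 against Upy-PEG. Fhl2 to Fhl1 ran over −0.63 to −0.32 for Upy-PEG against PBS. Xirp1 to Xirp2 ran over −0.24 to −0.089 for Upy-PEG against PBS, −0.25 to −0.11 for antimiR-195 against PBS and −0.11 to 0.05 for antimiR-195 against Upy-PEG, and was 0.057 in the last without antimiR-195 replicates 2 and 3. Tnfrsf12a to Tnfsf12 ran over 0.28 to 0.74 for antimiR-195 against PBS and −0.081 to 0.38 for antimiR-195 against Upy-PEG. Depth limits Tnfsf12 most, with 236 counts in its lowest library.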
